A study of Mus musculus with 12 samples.

Results

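The p53 pathway and the inhibitors of cyclin-dependent kinases were followed through 10 genes in mouse lung fibroblasts from normal lungs and from lungs with breast cancer metastasis. The genes were Trp53, which encodes p53, its inhibitor Mdm2, the kinase inhibitors Cdkn1a, Cdkn1b, Cdkn1c, Cdkn2a and Cdkn2b, and the p53 target genes Ccng1, Phlda3 and Gdf15. They were chosen by name, as the rows of the deposited expression table that carry these symbols, and each of the 10 symbols was found once among 20606 genes. Of these, 9 reached 1 FPKM in at least 3 libraries and were tested with the other genes that did so, 13300 in all. Cdkn2a did not and is described by its values.

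Bulk RNA sequencing was done on 12 libraries in 4 groups of 3. N-MF and N-MyoF are fibroblast subgroups of normal mice, and M-MF and M-MyoF are the same subgroups from mice with lung metastasis. MF stands for the matrix fibroblasts named in the series title, and MyoF is written in the labels without its full name. No genotype, allele, strain, age or tumour line, and no marker used to purify the subgroups, is given in the sources used here, and no library is stated to come from its own mouse. The p-values below therefore speak of differences between libraries, whose replicate spread may be technical.

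p53 is a transcription factor that is kept low by Mdm2, a ubiquitin ligase whose own gene p53 activates, so that the pair forms a feedback loop. When DNA is damaged or a cell is stressed, p53 accumulates and switches on genes that halt division, among them Cdkn1a. The products of Cdkn1a, Cdkn1b and Cdkn1c (p21, p27 and p57, the Cip/Kip family) bind complexes of cyclins with their kinases, and those of Cdkn2a and Cdkn2b (the INK4 family) bind CDK4 and CDK6 and so keep the retinoblastoma protein active.

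Promoter sequence was taken from RefSeq (GRCm38.p6) for 9 of the 10 genes, in 12 windows of 250 bases that end at the base before a transcript start. A p53 site is made of 2 copies of a half-site of 10 letters, named here by its consensus and searched on both strands. The half-site was found in 4 of the 12 windows (33.3%), those of Trp53, Mdm2, Ccng1 and the upstream start of Cdkn1a, and in 7.13% of 32851 windows of the same length before the starts of all genes in the RefSeq table. The windows of Cdkn1a, Mdm2 and Ccng1 are printed because these genes are p53 targets whose RNA is compared below, and that of Gdf15 because it is such a target without a match. They are written 5′ to 3′ on the strand of the gene, with the half-sites in capitals. Cdkn1a is at chr17:29090729-29090978 on the plus strand, Mdm2 at chr10:117710759-117711008, Ccng1 at chr11:40755287-40755536 and Gdf15 at chr8:70632457-70632706 on the minus strand.
Cdkn1a: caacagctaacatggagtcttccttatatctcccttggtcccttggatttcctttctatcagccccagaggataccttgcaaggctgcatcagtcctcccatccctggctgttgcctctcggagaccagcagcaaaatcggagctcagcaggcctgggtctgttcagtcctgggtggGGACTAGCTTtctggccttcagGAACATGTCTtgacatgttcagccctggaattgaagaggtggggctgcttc
Mdm2: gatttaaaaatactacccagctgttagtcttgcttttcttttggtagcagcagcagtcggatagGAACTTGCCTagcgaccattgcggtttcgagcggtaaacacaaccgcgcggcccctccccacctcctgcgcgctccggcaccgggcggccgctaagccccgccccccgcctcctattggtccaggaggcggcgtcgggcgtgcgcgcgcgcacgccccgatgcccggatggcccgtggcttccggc
Ccng1: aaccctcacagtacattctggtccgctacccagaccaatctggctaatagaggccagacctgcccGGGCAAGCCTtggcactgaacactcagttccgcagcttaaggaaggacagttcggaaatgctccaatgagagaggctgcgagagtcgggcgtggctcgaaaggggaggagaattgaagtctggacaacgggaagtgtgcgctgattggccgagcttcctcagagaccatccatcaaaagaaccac
Gdf15: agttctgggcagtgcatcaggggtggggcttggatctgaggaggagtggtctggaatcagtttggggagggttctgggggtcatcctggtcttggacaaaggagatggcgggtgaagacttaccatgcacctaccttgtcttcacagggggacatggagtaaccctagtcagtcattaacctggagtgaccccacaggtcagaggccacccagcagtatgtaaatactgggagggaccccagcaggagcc

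Cdkn1a had 2 matches before its upstream start. GGACTAGCTT lay 73 to 64 bases before the start and GAACATGTCT lay 51 to 42 bases before it. The 10 bases that directly follow the latter, tgacatgttc, differed from the half-site by 1 letter, so that they come close to a full p53 site. The single match of Mdm2, GAACTTGCCT, lay 186 to 177 bases before the start, and that of Ccng1, GGGCAAGCCT, 185 to 176 bases before it. The SP1-binding GC box GGGCGG, searched on both strands, was present in 5 of the 12 windows (41.7%) and in 32.7% of all windows. A match is a description of the letters, and a site outside the window was not searched for.

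FPKM, fragments scaled for transcript length and for mapped fragments, summed to between 528176 and 618478 per library, and the read depth is unknown. The summed fibroblast markers were highest in the MF libraries, and markers of other cells were present in all 4 groups. The 8 fibroblast markers summed to 21053 to 21288 FPKM in N-MF, 15306 to 15429 in M-MF, 3586 to 3642 in N-MyoF and 2072 to 2096 in M-MyoF, although Pdgfrb, 1 of the 8, was higher in each MyoF group than in the MF group of the same lungs. The 8 epithelial markers summed to 18760 to 19256 FPKM in N-MyoF and 15867 to 16395 in M-MyoF, above the fibroblast markers of the same libraries, and to 2255 to 2306 in N-MF and 3026 to 3049 in M-MF. The secretoglobin Scgb1a1 held most of that sum in the MyoF libraries (14807 and 12279 FPKM). Scgb1a1 is the main secreted protein of airway club cells. The 9 neutrophil markers summed to 31.5 to 35.5 FPKM in N-MF, 248 to 258 in M-MF, 135 to 148 in N-MyoF and 13225 to 13576 in M-MyoF. The 8 myofibroblast and smooth muscle markers summed to at most 218 FPKM in the MF libraries and to between 2872 and 3750 in the MyoF libraries. Fewer cells of a type and less RNA per cell cannot be told apart in such samples, and the part of these other cells in the results below was not tested.

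Cdkn1a was the most abundant of the 10 transcripts in every group, and FPKM allows that comparison because it is scaled for length. Its group means ran from 124 FPKM in M-MF to 705 in N-MyoF, a range of 2.49 on the log2(FPKM + 1) scale, the widest of the 10. Cdkn1c followed with a range of 1.82, Phlda3 with 1.27 and Gdf15 with 1.24, and Trp53 (0.34) and Cdkn1b (0.29) varied least among the 9 genes tested. All 4 groups stood apart from each other for Cdkn1a, Cdkn1b and Cdkn1c, 3 of the 9 genes, and for 42.5% of all genes. Metastasis was accompanied by less Cdkn1a and less Gdf15 RNA in both subgroups. Cdkn2b went in opposite directions, up in MF and down in MyoF, and Cdkn1c and Phlda3 fell in MF with no call in MyoF.

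**Figure D1:**
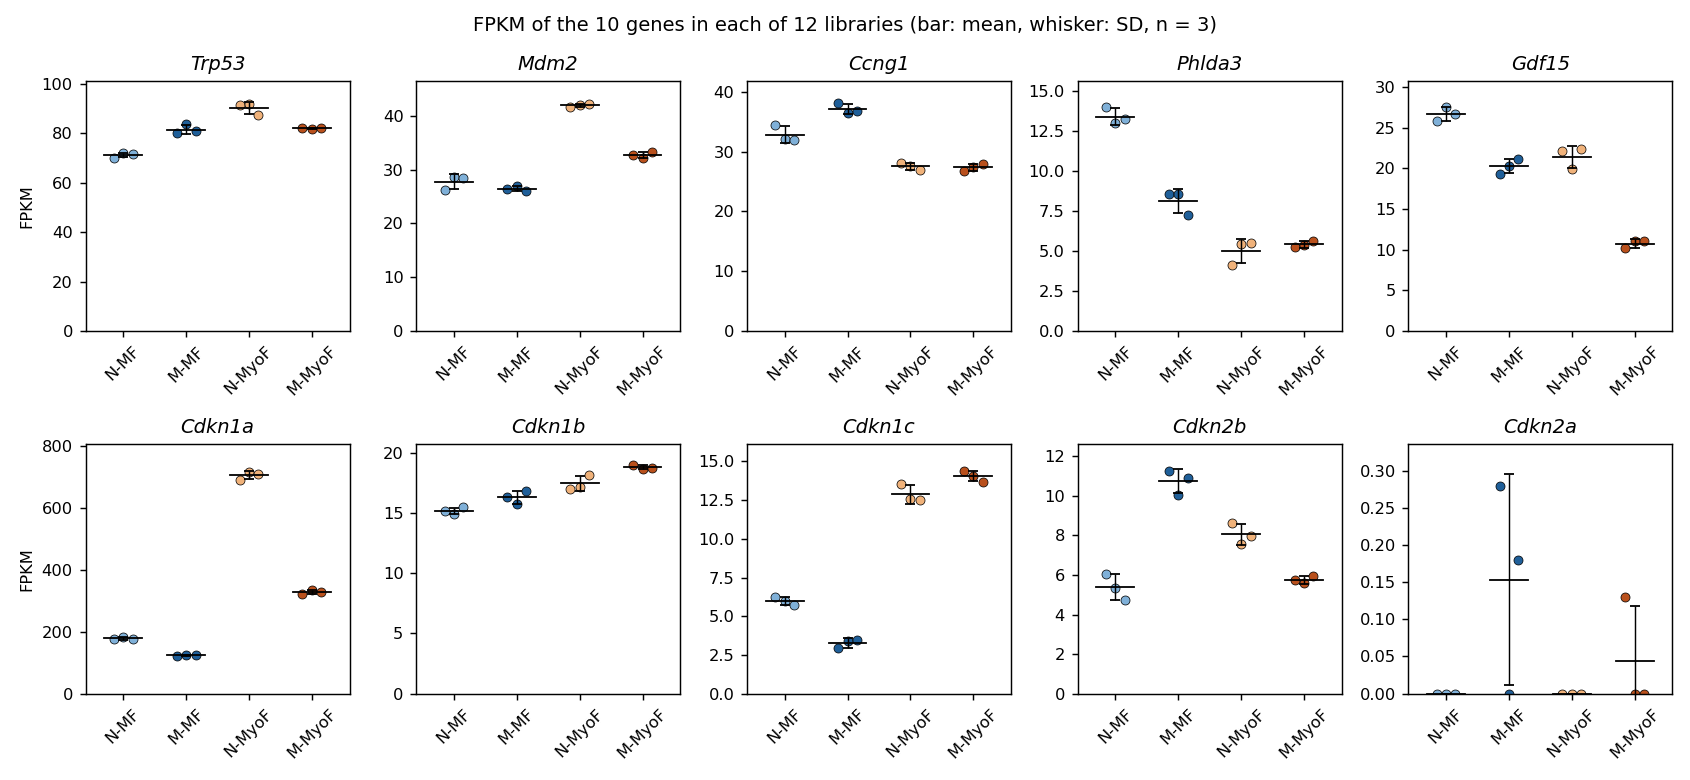
FPKM (y axis, from 0) of each of the 10 genes in the 3 libraries of each group (points), with the group mean (bar) and SD (whisker). The points of N-MyoF stand above all others for Cdkn1a, between 691.19 and 715.07 FPKM, while Cdkn2a stays at or below 0.28 FPKM in every library.

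In the feedback pair of p53 and Mdm2, the range of group means was 0.34 for Trp53 and 0.65 for Mdm2 on the log2(FPKM + 1) scale. Trp53 (chromosome 11, 69580348 to 69591873, plus strand) had 70.21, 71.93 and 71.65 FPKM in the N-MF libraries numbered 1, 2 and 3, and 80.00, 83.61 and 81.04 in M-MF. In N-MyoF it had 91.32, 91.79 and 87.43 FPKM and in M-MyoF 82.14, 81.96 and 81.98. N-MF was lowest and N-MyoF highest with no overlap with any other group, and M-MF and M-MyoF overlapped. In MF the log2 fold change with metastasis was 0.19 ± 0.0236 (SE; limma adjusted p = 7.57e-06), a rise that turned to -0.04 with quantile normalization. In MyoF it was -0.13 ± 0.0236 (adjusted p = 0.000165), a fall under every scaling tried, and between -0.46 and -0.12 over all 25 alternatives. The effects of the subgroups differed by 0.33 ± 0.0333 (MF minus MyoF; adjusted p = 2.86e-06).

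Mdm2 (chromosome 10, 117688875 to 117710758, minus strand) had 26.22, 28.74 and 28.37 FPKM in N-MF and 26.48, 26.89 and 26.06 in M-MF, which overlapped. In N-MyoF it had 41.75, 42.01 and 42.25 FPKM and in M-MyoF 32.83, 32.10 and 33.27. Every N-MyoF library was above every M-MyoF library, and both stood above the MF libraries. In MyoF Mdm2 fell by 0.35 on the log2 scale (-0.35 ± 0.0319; limma adjusted p = 3.67e-07), from 42.0 ± 0.2501 to 32.7 ± 0.591 FPKM (mean ± SD, n = 3), and between -0.66 and -0.32 over the alternatives. In MF the change was -0.07 ± 0.0319 (adjusted p = 0.0770; 95% interval -0.14 to 0.00). It passed at -0.17 with equal library sums, -0.20 with median-ratio scaling, -0.28 with quantile normalization and -0.11 without N-MF replicate 1. The effects differed between the subgroups by 0.28 ± 0.0451 (adjusted p = 0.000134).

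Among the Cip/Kip inhibitors most of the FPKM lost with metastasis was lost from Cdkn1a (chromosome 17, 29090979 to 29100722, plus strand), the gene of p21. It had 691.19, 715.07 and 709.49 FPKM in N-MyoF and 321.24, 334.57 and 327.82 in M-MyoF. In N-MF it had 174.98, 183.55 and 177.91 FPKM and in M-MF 122.44, 125.67 and 124.83. No group overlapped with another, and the order was N-MyoF, M-MyoF, N-MF and M-MF. In MyoF the mean fell from 705 ± 12.5 to 328 ± 6.67 FPKM, 2.15-fold, a log2 fold change of -1.10 ± 0.0224 (limma adjusted p = 1.16e-13). In MF it fell from 179 ± 4.36 to 124 ± 1.68 FPKM, 1.44-fold, or -0.52 ± 0.0224 (adjusted p = 2.09e-10), and by up to 0.79 over the alternatives, -0.79 being the value with quantile normalization. Of all genes tested, 2.46% had a lower log2 fold change in MyoF and 9.80% in MF. The fall was larger in MyoF, with a difference of 0.58 ± 0.0317 (adjusted p = 7.33e-09). The half-sites printed above lie before the upstream start of this gene. The gene overlaps an uncharacterised locus on the opposite strand, and it is not stated whether strand was used in counting.

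Cdkn1b (chromosome 6, 134920401 to 134925525, plus strand), which encodes p27, differed little between groups. It had 15.13, 14.94 and 15.46 FPKM in N-MF, 16.37, 15.71 and 16.81 in M-MF, 17.02, 17.15 and 18.19 in N-MyoF and 19.01, 18.67 and 18.77 in M-MyoF. The groups did not overlap, in rising order N-MF, M-MF, N-MyoF and M-MyoF. The log2 fold changes with metastasis, 0.10 ± 0.0328 in MF (limma adjusted p = 0.0171) and 0.10 ± 0.0328 in MyoF (adjusted p = 0.0111), turned negative under all 3 scalings, to between -0.09 and -0.01 in MF and between -0.16 and -0.05 in MyoF. In MF the call was also lost without N-MF replicate 2, without M-MF replicate 3 and without the 4 libraries numbered 3. The difference between the effects was -0.01 ± 0.0463 (adjusted p = 0.901; 95% interval -0.11 to 0.09).

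Cdkn1c (chromosome 7, 143458339 to 143461059, minus strand), the imprinted gene of p57, was higher in both MyoF groups than in both MF groups. It had 6.23, 5.97 and 5.74 FPKM in N-MF and 2.92, 3.40 and 3.47 in M-MF. In N-MyoF it had 13.54, 12.55 and 12.51 FPKM and in M-MyoF 14.36, 14.08 and 13.70. All 4 groups stood apart, as they did for 42.5% of all genes. Both MyoF groups were at 12.51 FPKM or more and both MF groups at 6.23 or less. In MF it fell from 5.98 ± 0.245 to 3.26 ± 0.299 FPKM (log2 fold change -0.71 ± 0.0520; limma adjusted p = 4.32e-08), and by 0.41 with a pseudocount of 5, which weighs down low values. In MyoF the change was 0.12 ± 0.0520 (adjusted p = 0.0518; 95% interval 0.01 to 0.23) which took the opposite sign under all 3 scalings and passed with a pseudocount of 5. The difference between the effects, -0.83 ± 0.0735, passed (adjusted p = 7.72e-07). An antisense gene overlaps Cdkn1c, and without a statement on strand their reads cannot be told apart.

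Summed over the Cip/Kip genes, N-MF held 199.97 FPKM, M-MF 144, N-MyoF 736 and M-MyoF 361 (means of 3 libraries). Cdkn1a made up 89.4% ± 0.331 of the sum in N-MF and 86.4% ± 0.388 in M-MF (SD, n = 3). Its share was 95.9% ± 0.125 in N-MyoF and 90.9% ± 0.262 in M-MyoF. The sum therefore followed Cdkn1a, and the share of Cdkn1b went from 7.59% to 11.3% in MF and from 2.37% to 5.22% in MyoF.

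**Figure D2:**
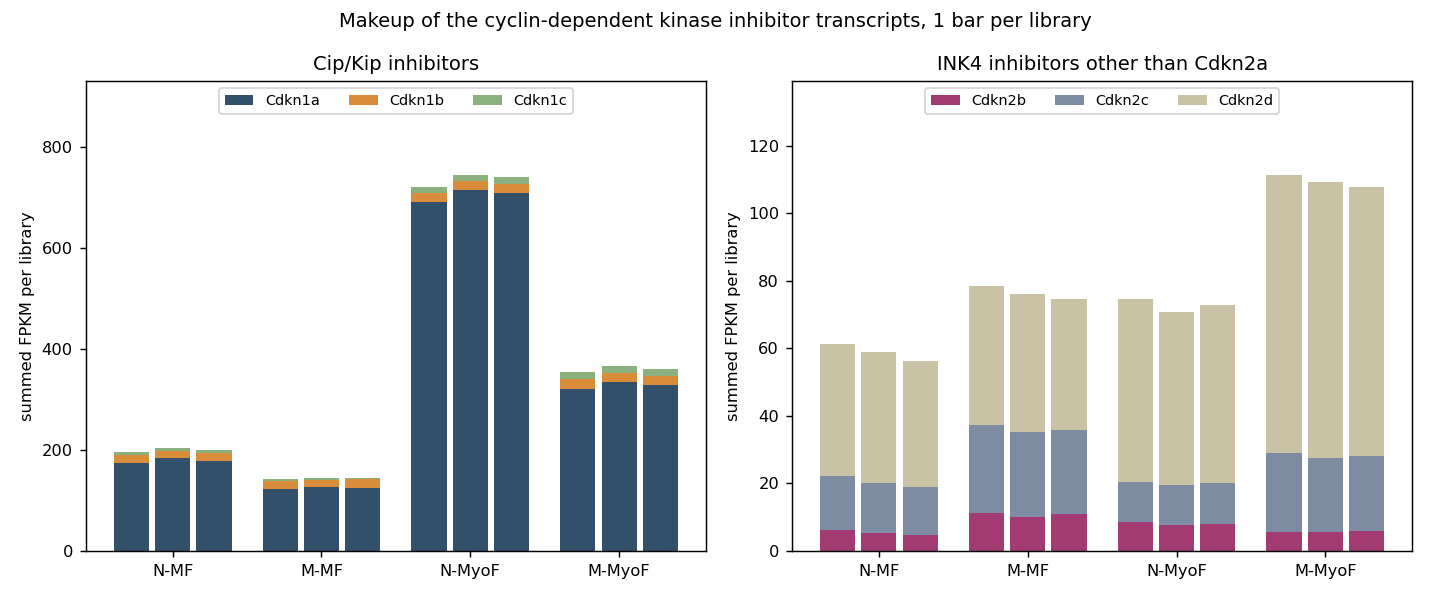
Summed FPKM per library (y axis, from 0; 1 bar per library, 3 per group) of the Cip/Kip inhibitors (left) and of the INK4 inhibitors other than Cdkn2a (right). Cdkn1a fills most of each left bar, from 86.4% in M-MF to 95.9% in N-MyoF, and Cdkn2d is the largest piece of each right bar.

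The INK4 genes Cdkn2a and Cdkn2b lie next to each other on chromosome 4 (89274473 to 89294619 and 89306289 to 89311032, both on the minus strand), and only Cdkn2b was clearly present. Cdkn2a, which encodes p16Ink4a and, from another first exon, the Mdm2 inhibitor p19Arf, was listed at 0 in all N-MF and N-MyoF libraries. It had 0.28, 0.00 and 0.18 FPKM in M-MF and 0.13, 0.00 and 0.00 in M-MyoF. It was thus above 0 in 2 of 3 M-MF libraries and 1 of 3 M-MyoF libraries, and the value per gene cannot separate its products. Without the expression filter the change in MF was 0.20 ± 0.075 (limma adjusted p = 0.0424) with values that overlap at 0, and in MyoF 0.06 (adjusted p = 0.528). Of 8 housekeeping genes, 0 were at 0 in any library, which does not speak to transcripts as low as Cdkn2a.

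Cdkn2b, the gene of p15Ink4b, which TGF-beta is known to induce, had 6.06, 5.36 and 4.73 FPKM in N-MF and 11.27, 10.06 and 10.91 in M-MF. In N-MyoF it had 8.63, 7.59 and 7.96 FPKM and in M-MyoF 5.75, 5.57 and 5.94. M-MF was highest and N-MyoF next, each apart from the rest, and N-MF and M-MyoF overlapped. In MF it rose 2.00-fold, from 5.38 ± 0.665 to 10.7 ± 0.621 FPKM (log2 fold change 0.88 ± 0.0699; limma adjusted p = 9.82e-08). In MyoF it fell from 8.06 ± 0.527 to 5.75 ± 0.185 FPKM (-0.42 ± 0.0699; adjusted p = 0.000102), with values of -0.63 to -0.28 over the alternatives. The difference of 1.31 ± 0.0988 was the widest of the 9 genes (adjusted p = 1.78e-07), and both directions held under all 3 scalings. Beside these changes, the median change of the mesothelial markers was 3.92 in MF and 1.06 in MyoF on the log2 scale, and that of the neutrophil markers 2.45 and 5.84.

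The other INK4 genes, Cdkn2c and Cdkn2d, and the phosphatase gene Cdkn3, which peaks in dividing cells, did not share the fall of Cdkn1a. Cdkn2c went from 15.01 to 25.3 FPKM in MF (0.72 ± 0.0405) and from 11.96 to 22.5 in MyoF (0.86 ± 0.0405). Cdkn2d rose in MyoF from 52.8 to 81.3 FPKM (0.62 ± 0.0291), while its change of 0.07 in MF turned to between -0.16 and -0.04 under the 3 scalings. Cdkn3 rose from 0.350 to 10.6 FPKM in MF and from 0.417 to 22.0 in MyoF (3.10 and 4.02). The share of Cdkn2b in the summed transcripts of the 4 INK4 genes, Cdkn2a included, was 9.12% in N-MF and 14.03% in M-MF, against 11.1% in N-MyoF and 5.25% in M-MyoF.

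The remaining p53 targets went different ways. Ccng1 (chromosome 11, 40748552 to 40755309, minus strand), which encodes cyclin G1 and is a classical p53 target, had 34.40, 32.06 and 31.99 FPKM in N-MF and 38.12, 36.44 and 36.79 in M-MF. In N-MyoF it had 28.05, 27.61 and 26.95 FPKM and in M-MyoF 26.77, 27.41 and 27.97. The MyoF groups overlapped and lay below both MF groups, which stood apart. In MF the log2 fold change was 0.17 ± 0.0323 (limma adjusted p = 0.000306), a call lost with equal library sums (0.06) and with median-ratio scaling (0.04) and turned to -0.07 with quantile normalization. In MyoF it was -0.01 ± 0.0323 (adjusted p = 0.833; 95% interval -0.08 to 0.06), and it passed as a fall of -0.29 to -0.16 under the 3 scalings. The effects differed by 0.18 ± 0.0457 (adjusted p = 0.00403).

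Phlda3 (chromosome 1, 135766085 to 135769134, plus strand), a p53-induced repressor of Akt signalling, was highest in N-MF. It had 13.96, 12.98 and 13.24 FPKM in N-MF and 8.57, 8.54 and 7.25 in M-MF. In N-MyoF it had 4.11, 5.42 and 5.47 FPKM and in M-MyoF 5.25, 5.34 and 5.62. N-MF and M-MF stood apart from each other and from the MyoF groups, which overlapped. In MF it fell from 13.4 ± 0.508 to 8.12 ± 0.754 FPKM (-0.66 ± 0.0841; limma adjusted p = 1.05e-05). In MyoF the change was 0.10 ± 0.0841 (adjusted p = 0.278; 95% interval -0.08 to 0.29), and it turned to between -0.08 and -0.03 under the 3 scalings. The difference between the effects was -0.76 ± 0.119 (adjusted p = 0.000116).

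Gdf15 (chromosome 8, 70629393 to 70632470, minus strand), a secreted stress hormone of the TGF-beta superfamily that p53 can induce, had 22.13, 19.87 and 22.30 FPKM in N-MyoF and 10.14, 11.06 and 11.02 in M-MyoF. In N-MF it had 25.77, 27.56 and 26.69 FPKM and in M-MF 19.33, 20.32 and 21.16. N-MF was highest and M-MyoF lowest, both apart from the others, and N-MyoF and M-MF overlapped. In MyoF the mean fell 2.00-fold, from 21.4 ± 1.36 to 10.7 ± 0.520 FPKM, a log2 fold change of -0.93 ± 0.0498 (limma adjusted p = 1.59e-09). In MF it fell from 26.7 ± 0.895 to 20.3 ± 0.916 FPKM, or -0.38 ± 0.0498 (adjusted p = 1.38e-05). A lower log2 fold change was found for 3.86% of all genes in MyoF and 14.95% in MF. The difference was 0.55 ± 0.0704 (adjusted p = 2.08e-05). Unlike the 3 target genes printed with it, Gdf15 had no half-site in the window printed above, nor in the one before its other start.

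Between M-MF and N-MF, a pair that the series was designed to compare, 8 of the 9 genes passed, 4 higher and 4 lower, where 78.1% of all genes tested passed (46.3% higher and 31.8% lower). Cdkn2b, Trp53, Ccng1 and Cdkn1b were the higher genes and Cdkn1c, Phlda3, Cdkn1a and Gdf15 the lower ones. The split became 2 higher and 5 lower with equal sums or median-ratio scaling, and 1 higher and 6 lower with quantile normalization. Of all 13300 genes tested, these scalings called 4354 to 5273 higher and 5265 to 6432 lower. The 2 groups did not overlap for 8 of the 9 genes, nor for 79.8% of all genes. None changed 2-fold on the log2(FPKM + 1) scale, which 11.9% of all genes did. The median of the 9 log2 fold changes was -0.07, beside 0.08 for all genes. These counts are near the background. The quartiles of all genes were -0.21 and 0.45, and Cdkn1a, Cdkn1c, Phlda3, Gdf15 and Cdkn2b lay outside them, which alone does not set them apart, since quartiles are exceeded by as many genes as lie between them. A larger change in either direction was found for 14.7% of all genes than for Cdkn2b, 20.9% than for Cdkn1c, 23.3% than for Phlda3, 31.4% than for Cdkn1a and 43.6% than for Gdf15.

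Between M-MyoF and N-MyoF, the other pair the series set out to compare, 6 of the 9 genes passed, beside 80.7% of all genes. Cdkn1b was higher (49.1% of all genes were) and Cdkn1a, Gdf15, Cdkn2b, Mdm2 and Trp53 were lower (31.6% of all genes were). With each of the 3 scalings none of the 9 genes was higher and 6 or 7 were lower. Of all 13300 genes tested, 4542 to 5246 were then higher and 5616 to 6513 lower. The groups stood apart for 7 of the 9 genes and for 82.2% of all genes. Cdkn1a alone changed at least 2-fold on the log2(FPKM + 1) scale, as did 14.6% of all genes. The median was -0.13, beside 0.11 for all genes, whose quartiles were -0.22 and 0.52.

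**Figure D3:**
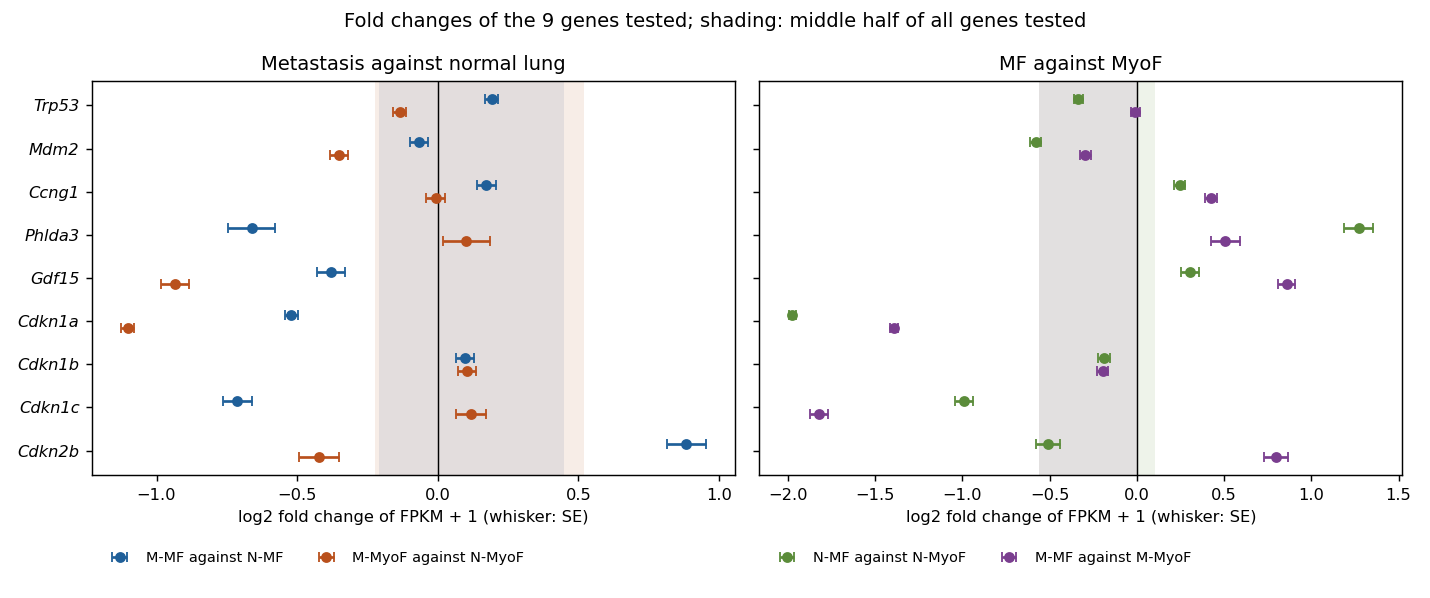
Log2 fold change of FPKM + 1 (x axis, point with SE) of the 9 genes tested, for metastasis against normal lung (left) and MF against MyoF (right), with the range between the quartiles of all genes tested shaded in each comparison's colour. On the left, Cdkn1a and Gdf15 lie left of the shading in both subgroups and Cdkn2b lies on opposite sides of it, at 0.88 in MF and -0.42 in MyoF.

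The scalings matter because they move the whole distribution. The median log2 fold change of all genes, 0.08 in MF and 0.11 in MyoF as deposited, became 0.00 and -0.05 with equal library sums, -0.02 and -0.03 with median-ratio scaling, and -0.10 and -0.11 with quantile normalization. The genes called in MF, 6153 higher and 4229 lower as deposited, split into 4354 and 6432 with quantile normalization, and those in MyoF changed from 6529 and 4205 to 4542 and 6513. Relative to that shift, Cdkn1a, Gdf15 and Cdkn2b in both subgroups, Cdkn1c and Phlda3 in MF, and Mdm2 and Trp53 in MyoF kept their direction and passed under all 3 scalings.

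The effects of metastasis differed between the subgroups for 8 of the 9 genes, beside 64.4% of all genes. A difference above 0 means a higher log2 fold change with metastasis in MF than in MyoF, and not a higher FPKM. Such a difference was found for Cdkn2b, Cdkn1a, Gdf15, Trp53, Mdm2 and Ccng1 (26.4% of all genes). Cdkn1c and Phlda3 had a difference below 0 (38% of all genes). Only Cdkn2b had a difference of 2-fold or more, as had 7.1% of all genes. These 8 calls were the same under each scaling and with each library left out.

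The subgroups of normal lung were compared with each other to place these effects. All 9 genes differed between N-MF and N-MyoF, beside 82% of all genes. Phlda3, Gdf15 and Ccng1 were higher in N-MF (24.5% of all genes were), with log2 fold changes of 1.27 ± 0.0841, 0.30 ± 0.0498 and 0.24 ± 0.0323. Cdkn1a was 3.94-fold lower in mean FPKM (-1.97 ± 0.0224; limma adjusted p = 2.71e-16), and Cdkn1c (-0.99 ± 0.0520), Mdm2 (-0.58 ± 0.0319), Cdkn2b (-0.51 ± 0.0699), Trp53 (-0.34 ± 0.0236) and Cdkn1b (-0.19 ± 0.0328) were also lower, as were 57.6% of all genes. With median-ratio scaling the Trp53 call was lost at -0.04 and Cdkn1b turned to 0.09, and the Cdkn1b call was also lost with quantile normalization. All 9 genes stood apart between these groups, as did 82.4% of all genes. Cdkn1a and Phlda3 differed at least 2-fold, as did 16.8% of all genes.

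In lungs with metastasis, 8 of the 9 differed between M-MF and M-MyoF, beside 85.1% of all genes. Gdf15 (0.86 ± 0.0498), Cdkn2b (0.80 ± 0.0699), Phlda3 (0.51 ± 0.0841) and Ccng1 (0.43 ± 0.0323) were higher in M-MF (19.1% of all genes were). Cdkn1c (-1.82 ± 0.0520), Cdkn1a (-1.39 ± 0.0224), Mdm2 (-0.30 ± 0.0319) and Cdkn1b (-0.20 ± 0.0328) were lower (66% of all genes were). Mdm2 turned to 0.02 with median-ratio scaling, and Cdkn1b to 0.11 with it and 0.07 with quantile normalization. Trp53 did not pass (-0.01 ± 0.0236; limma adjusted p = 0.742), and it was higher by 0.10 to 0.31 under the 3 scalings. The groups stood apart for 8 of the 9 genes and for 85.6% of all genes. Cdkn1a and Cdkn1c differed at least 2-fold, as did 13.6% of all genes. Both comparisons between subgroups share their libraries with those between lungs, and the epithelial marker sums given above differ between MF and MyoF by far more than between lungs.

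The wider p53 pathway did not move in 1 direction. The counts of its lists stand beside 46.3% of all genes higher and 31.8% lower in MF, and 49.1% and 31.6% in MyoF, as deposited. Under the 3 scalings 4354 to 5273 of the 13300 genes were higher in MF and 5265 to 6432 lower. In MyoF 4542 to 5246 were higher and 5616 to 6513 lower. Of 11 tested regulators of p53 activity (14 listed), 6 rose and 3 fell in MF and 5 rose and 2 fell in MyoF. That balance did not hold under the scalings, since the split in MF was 4 to 3 with equal sums, 3 to 4 with median-ratio scaling and 3 to 5 with quantile normalization. In MyoF it was 5 to 5 with the former pair and 3 to 5 with the latter. The checkpoint kinase gene Chek1 rose from 0.490 to 3.93 FPKM in MF (1.73 ± 0.0483) and from 0.550 to 7.14 in MyoF (2.39 ± 0.0483). The deacetylase gene Sirt1, whose product acts on p53, fell in both (-0.92 and -0.87). Medians of the 11 genes were 0.12 and 0.09 as deposited, and of either sign under the scalings, close to those of all genes.

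Of 15 p53 targets in arrest and repair, 5 rose and 7 fell in MF, and 4 rose and 7 fell in MyoF, where 31.8% and 31.6% of all genes fell. In MF the split became 4 to 8 with equal sums or median-ratio scaling and 3 to 10 with quantile normalization, and in MyoF 1 to 10 and 1 to 12. Of all 13300 genes tested, 5265 to 6432 fell in MF and 5616 to 6513 in MyoF under the 3 scalings. Btg2, an antiproliferative p53 target, fell from 516 ± 4.41 to 377 ± 2.66 FPKM in MF (-0.45 ± 0.0128) and from 1867 ± 12.8 to 946 ± 5.26 in MyoF (-0.98 ± 0.0128). Plk2, a polo-like kinase gene, rose in MF (0.55 ± 0.0176) and fell in MyoF (-0.63 ± 0.0176), a difference of 1.18 ± 0.0249 (limma adjusted p = 1.17e-12). Trp53inp1, a p53 cofactor gene, rose in both (0.67 and 1.20). Sesn2, a sestrin gene of the stress response, rose in MF (0.72), and its change of 0.16 in MyoF turned to -0.02 with equal sums.

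Of 12 p53 targets in cell death, 6 rose and 3 fell in MF, and 7 rose and 2 fell in MyoF, where 46.3% and 49.1% of all genes rose and 31.8% and 31.6% fell. The split was 6 to 4 and 7 to 5 with equal sums or median-ratio scaling, and 6 to 5 in both with quantile normalization. Among all 13300 genes tested, the scalings gave 5265 to 6432 falls in MF and 5616 to 6513 in MyoF. Trp53i11 rose from 4.38 to 22.8 FPKM in MF (2.14) and from 22.8 to 48.8 in MyoF (1.07). Bax, the pore-forming effector of the mitochondrial pathway, rose from 58.2 to 91.0 FPKM in MF (0.64) and from 50.3 to 97.7 in MyoF (0.95). The death receptor genes split, since Tnfrsf10b rose (1.35 and 0.88) and Fas fell (-0.48 and -0.66). Of 4 tested metabolic targets (7 listed), 3 rose in each subgroup, beside the same shares of all genes, led by Ddit4, an inhibitor of mTOR signalling (2.20 in MF and 1.04 in MyoF). The proline and hydroxyproline catabolism gene Aldh4a1 rose in MF (0.33) and was the 1 gene of the 4 that fell in MyoF, from 9.86 to 8.35 FPKM (-0.22).

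Most of the cyclins, kinases and partners that the inhibitors act on rose in both subgroups. Of 16 genes of the retinoblastoma and G1 cyclin axis, 12 rose and 4 fell in each (46.3% of all genes rose in MF and 49.1% in MyoF), 1 fewer rising in MF with median-ratio scaling or quantile normalization, with medians of 0.69 in MF and 1.01 in MyoF. Ccnd1, which encodes cyclin D1, rose from 2.81 ± 0.124 to 53.5 ± 0.916 FPKM in MF (3.84 ± 0.0285) and from 4.01 ± 0.0265 to 113 ± 1.20 in MyoF (4.51 ± 0.0285). Its kinase gene Cdk4 rose in both (1.20 and 1.22), while Ccnd2, for cyclin D2, fell in MF (-1.03).

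All 12 genes of S phase and mitosis rose at least 2-fold in both subgroups and passed as rises under all 3 scalings, with medians of 3.32 in MF and 3.81 in MyoF. Of all 13300 genes tested, 1240 rose at least 2-fold in MF and 1510 in MyoF. Among the 12 genes, Top2a, topoisomerase II alpha, went from 0.300 to 14.7 FPKM in MF and from 0.833 to 27.6 in MyoF. Cdk1, the mitotic kinase gene, went from 0.1 to 12.02 and from 0.307 to 19.9 FPKM. The 12 genes summed to 14.7 to 15.1 FPKM in N-MF and 199 to 204 in M-MF, and to 20.3 to 21.5 in N-MyoF and 371 to 373 in M-MyoF. All 9 neutrophil and all 8 mesothelial markers were also higher with metastasis in both subgroups as deposited, where 46.3% of all genes were higher in MF and 49.1% in MyoF. With each of the 3 scalings 6 mesothelial markers were higher and 1 was lower in MyoF, and with quantile normalization 8 neutrophil markers were higher in MF. The keratin gene Krt8 rose too (4.73 and 4.02), as did Krt18 (4.41 and 3.53), while Krt19 rose in MF (1.07) and stood at 56.0 FPKM in N-MyoF and 56.1 in M-MyoF. Of the 8 epithelial markers, 6 were higher and 2 (Cdh1 and Sftpc) lower in MF. In MyoF 3 were higher and 3 (Cdh1, Sftpc and Scgb1a1) lower. The MyoF split was 2 to 4 with equal sums or median-ratio scaling. With quantile normalization it was 2 to 3 in MyoF and 4 to 2 in MF. Which cells carried the dividing-cell transcripts was not tested.

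Genes known to regulate the Cdkn2a locus also changed. Of 9 tested (10 listed), 2 rose and 7 fell in MF, where 46.3% of all genes rose and 31.8% fell. With quantile normalization a rise of 0.26 in MF became 0.09 and lost its call. Under the 3 scalings 4354 to 5273 of all 13300 genes rose in MF and 5265 to 6432 fell. In MyoF 4 rose and 4 fell, where 49.1% of all genes rose and 31.6% fell. The split in MyoF was 2 and 5 with equal sums or median-ratio scaling and 2 and 6 with quantile normalization. Under these scalings 4542 to 5246 of the 13300 genes tested rose in MyoF and 5616 to 6513 fell. The polycomb reader Cbx7 fell from 7.44 to 2.83 FPKM in MF and from 14.4 to 8.31 in MyoF (-1.14 and -0.73). The inhibitor of helix-loop-helix factors Id1 fell too (-1.06 and -0.78), and Bmi1, a polycomb repressor of the locus, rose (0.66 and 0.70).

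**Figure D4:**
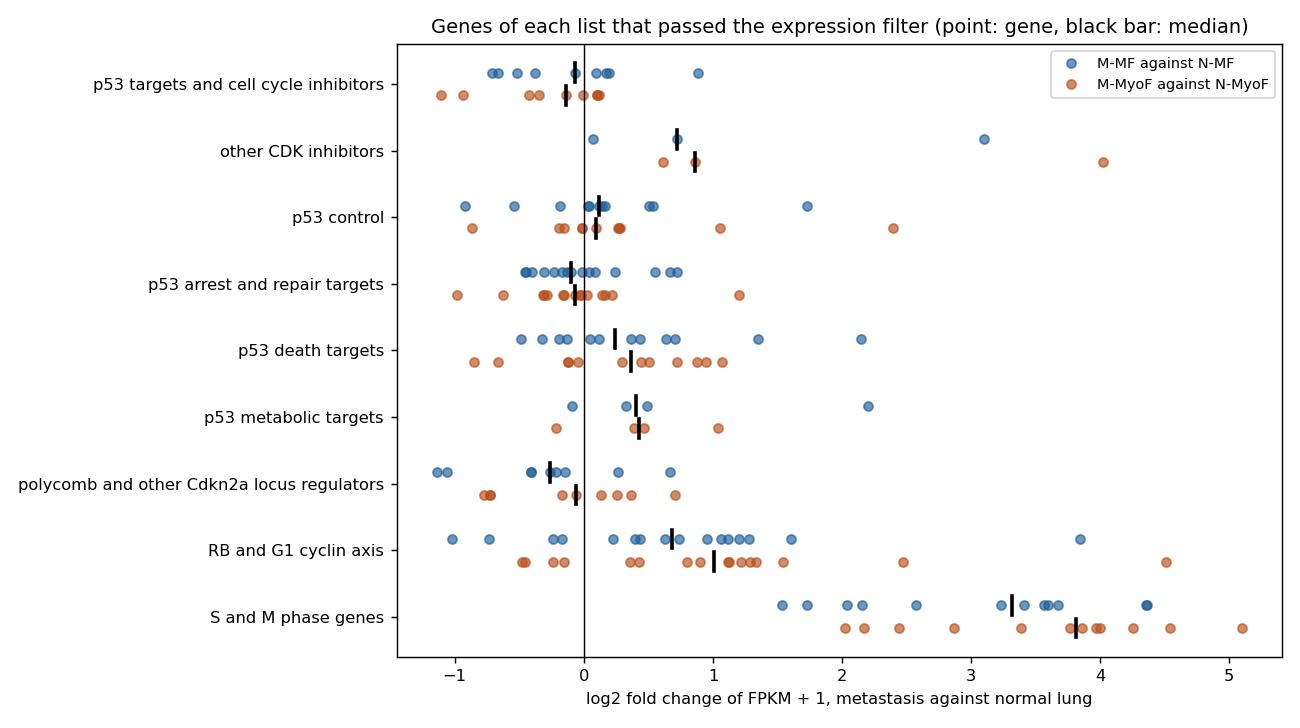
Log2 fold change of FPKM + 1 with metastasis (x axis) of every tested gene of each list (points) in MF and MyoF, with the list's median (black bar). The 12 S and M phase genes lie furthest right, with medians of 3.32 and 3.81, while the p53 target lists spread on both sides of 0.

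Profiles over the 12 libraries were compared for the 3 genes with the widest range of group means, by the root mean square distance between centred log2(FPKM + 1) profiles over 12535 genes with a mean of at least 1 FPKM. The profile nearest to Cdkn1a was that of Btg2, at a distance of 0.073, with Clic3 (0.0875) and Cyp2b10 (0.0983) next. Btg2 is also a listed p53 target, and its level was highest in N-MyoF (1867 FPKM) and lowest in M-MF (377 FPKM), as for Cdkn1a. Clic3 (50.3 and 7.36 FPKM) and Cyp2b10 (55.7 and 10.7 FPKM), which are in none of the lists, had their extremes in the same groups. Shared extremes follow largely from choosing the nearest profiles and are no further likeness. What else these profiles share was not tested. The nearest profiles to Cdkn1c were those of Tnf (0.129), Tns1 (0.162) and Ism1 (0.172). Those nearest to Phlda3 were Cpeb1 (0.0898), Castor1 (0.115) and Septin8 (0.118). The libraries of a group count as 3 points each here, so likeness mostly reflects the 4 group means.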

How the data were processed

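RNA was taken up in Trizol and cDNA was made and amplified by a SMART-seq method before a transposon-based library step, per the labels' protocols. The build was GRCm38, per the submitters' processing notes. Not given in the sources used here were the aligner, counter, annotation and use of strand. The authors computed and deposited FPKM, which the table holds to 2 decimals. It has 0 columns of unlisted samples, and 2 symbols, none among the 10 genes, stand on 2 rows each.

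Groups came from the sample titles. In R 4.3.3 with limma 3.58.1, log2(FPKM + 1) of the 13300 genes that reached 1 FPKM in 3 or more samples was fitted with 1 model of the 4 group means over all 12 libraries, with a variance trend. Each of 5 contrasts was adjusted over all genes (Benjamini-Hochberg), and genes passed under 0.05. The pseudocount of 1 understates changes of low genes. The depth is unknown, so precision rests on the spread of the 3 libraries within groups. For each gene that spread was estimated over all 4 groups together and drawn toward the variance trend.

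The members and the 17 gene lists (163 entries, all matched, 1 by a synonym) were chosen with earlier results of these data known. Beside all 10 members, the text names up to 4 genes per list with the smallest p in a contrast described, and the 3 nearest profiles of the 3 tested members with the widest range. Tables were made with Python 3.11.15 and pandas 2.3.3, and the code was tested on simulated data. Each result was recomputed with a pseudocount of 0.1 or 5, without a filter or with one of 5 FPKM, with 3 scalings, on the compared groups only, with other variance priors, library weights or the replicate block, without each library, and at stricter thresholds. Leaving out the 4 libraries numbered 3 was chosen after seeing the data.

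No label says what the library numbers mark. Deviations from the group means, over 1176 genes at 50 FPKM or more, correlated at 0.382 to 0.553 in the 18 pairs with the same number and at -0.385 to -0.0451 in the 36 other pairs. The numbers therefore pair the libraries by the rule used (over 0.1 in every pair), from the data and not from a label.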

Additional observations from a re-analysis of the deposited data

Results flagged for a closer look

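For 8 of the 9 genes the log2 effect of metastasis in MF minus that in MyoF passed the interaction test (limma, adjusted over all genes, of which 64.4% passed). It was 1.31 for Cdkn2b, which rose in MF and fell in MyoF. It was 0.58 for Cdkn1a and 0.55 for Gdf15, which fell in both and further in MyoF. It was 0.33 for Trp53 and 0.28 for Mdm2, which fell in MyoF, and 0.18 for Ccng1. It was -0.83 for Cdkn1c and -0.76 for Phlda3, whose falls passed in MF. Markers of neutrophils also differed, with a median log2 fold change of 2.45 in MF and 5.84 in MyoF. So did mesothelial markers, with medians of 3.92 in MF and 1.06 in MyoF. The part of these and other cells in the values above was not tested.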

How the results depend on the processing

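Over 45 values of single genes and 1116 alternative values, 1062 kept their direction and side of the threshold, 32 reversed, 13 newly passed and 9 no longer passed; 31 of the 45 kept both under all alternatives. The counts of members that passed stayed within 1.5 times except with a 2-fold minimum, which left 0 in M-MF against N-MF, 1 in M-MyoF against N-MyoF, 2 in N-MF against N-MyoF, 2 in M-MF against M-MyoF and 1 for the difference of effects. The replicate block gave 8, 6, 9, 8 and 8 members in that order, as without it, and changed no call.

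Reversals under equal library sums, median-ratio scaling and quantile normalization, in that order, were -0.0087, -0.032 and -0.085 for Cdkn1b in MF. In MyoF they were -0.078, -0.050 and -0.16 for Cdkn1b, -0.060, -0.032 and -0.12 for Cdkn1c, and -0.059, -0.033 and -0.084 for Phlda3. They were 0.095, 0.31 and 0.13 for Trp53 between M-MF and M-MyoF, and 0.070, 0.017 and 0.071 for the difference of effects on Cdkn1b. Quantile normalization also reversed Trp53 (-0.043) and Ccng1 (-0.066) in MF and Cdkn1b between M-MF and M-MyoF (0.071). Median-ratio scaling reversed Cdkn1b between N-MF and N-MyoF (0.093) and between M-MF and M-MyoF (0.11), and Mdm2 there (0.018). The cause was not tested.

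With each library left out in turn, members that passed ranged from 7 to 9, 6 to 7, 9 to 9, 8 to 8 and 8 to 8. The values that changed sign had no call. In MyoF, Ccng1 ranged from -0.023 to 0.0078 and Phlda3 from -0.0098 to 0.16. Trp53 between M-MF and M-MyoF ranged from -0.026 to 0.0050, and the difference of effects on Cdkn1b from -0.036 to 0.017. The Cdkn1c change in MyoF (0.10 to 0.15) passed without M-MF replicate 1, M-MF replicate 3 or N-MyoF replicate 1. Depth is unknown, so what it limits, as for Cdkn2a, cannot be stated.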

Other observations

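Genes of the early response, which are induced within minutes by stress or growth factors and during tissue dissociation, were looked at after the values were seen. As deposited, 5 of the 6 genes named here were lower with metastasis in both subgroups (limma, adjusted over all genes). Of all genes, 31.8% were lower in MF and 31.6% in MyoF. The 6 genes were chosen with their values known, so their count cannot be weighed against these shares. They were not recomputed under the scalings. Fos, a subunit of the AP-1 factor, had a log2 fold change of -0.79 in MF and -0.64 in MyoF, and its partner Jun had -0.28 and -0.30. Egr1, a zinc finger factor, had -1.06 and -1.24. Atf3, a stress factor that can bind the promoters of p53 targets, had -0.47 and -1.15, and Klf4 had -0.25 and -0.86. Myc differed in sign, at 0.13 in MF and -0.73 in MyoF. Their part in the fall of Cdkn1a and Btg2 in the same libraries was not tested.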
